A study of Mus musculus with 18 samples.

Results

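Wwox, Tet2, Cdk6, Egfr, Cdkn2a, Fhit, Myc, Ccnd1 and Rassf1, 9 genes known as suppressors or drivers of tumours including those of the lung, were followed in mouse lung by the probe sets whose annotation names exactly 1 of these symbols. These were 26 of the 45101 probe sets of the array, for 9 of the 18193 genes that had a probe set annotated to a single symbol. The genes were selected on measured values of the same arrays, taken here to be the differences of the tumour-positive chemicals from the other groups, so those differences are given below as a description. Numbers of calls in them stand only beside the share of all tested probe sets called, and nothing is read from them. Of the 26 probe sets, 20 lay above the 40th percentile of their array on at least 3 arrays and were part of the fit. The other 6 were 2 of Wwox (1438517_at and 1431942_at), 1 of Cdk6 (1460291_at), 1 of Egfr (1457563_at), 1 of Rassf1 (1456994_at) and the only one of Cdkn2a (1450140_a_at).

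The study asked whether gene expression in the lung after 13 weeks of dosing can predict lung tumours in long-term rodent bioassays. Lungs came from 18 B6C3F1 mice, all female, 18 weeks old at sampling and 3 to a group, and RNA of the right lobe of each was measured on 1 Affymetrix mouse genome array. B6C3F1 is a hybrid laboratory strain widely used in such bioassays. The study's design calls 2 chemicals positive lung carcinogens. These were 1,5-naphthalenediamine (NDA) at 2000 ppm in feed (animals 2, 4 and 5) and 2,3-benzofuran at 240 mg/kg by gavage (animals 6, 8 and 10). It calls 2 others negative, namely N-(1-naphthyl)ethylenediamine dihydrochloride (NEDD) at 2000 ppm in feed (animals 12, 14 and 15) and pentachloronitrobenzene (PCNB) at 8187 ppm in feed (animals 16, 18 and 20). The corn oil control (animals 22, 24 and 25) received the vehicle by gavage at 5 ml/kg on 5 days a week, as did the benzofuran mice, and the feed control (animals 27, 28 and 29) and the 3 feed groups were exposed on 7 days a week. Each array is named below by its group and animal number. No group consisted of tumours, and the arrays read whole lung tissue, in which fewer cells of a type and less RNA per cell cannot be told apart.

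All values are log2 signals, so that a difference of 1 is a doubling. The array of benzofuran 10 stood apart from the others. On the first principal component, which held 27.4% of the variance, it lay at 83.49, against -16.1 to 1.83 for the other 17 arrays. The 3′ minus 5′ difference of the actin control, a measure of RNA degradation, was 0.906 on that array and 0.333 to 0.726 on the others, while the labelled RNA integrity number of 8.9 was inside the range of 8.3 to 9.4 where one was given. In the NDA arrays the actin difference was 0.333 to 0.432, against 0.58 to 0.726 in the feed control arrays. Results that rest on benzofuran 10 are given with and without it. The tissue label was borne out by 7 of 7 alveolar type 2 and 7 of 7 endothelial marker genes above the 40th percentile on at least 3 arrays.

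WWOX and FHIT are proteins encoded at fragile sites, stretches of the genome prone to breakage, and both are lost in many human lung cancers. TET2 oxidises methylated cytosine and so starts DNA demethylation. Cyclin D1, the product of Ccnd1, activates CDK6 to push the cell past the restriction point of the G1 phase, and p16, encoded by Cdkn2a, blocks that kinase. EGFR passes growth factor signals from the cell surface to RAS, MYC is a transcription factor that acts downstream of many growth signals, and RASSF1 is a scaffold that links RAS to the Hippo kinases and is often silenced by promoter methylation in human lung tumours.

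The promoters of Tet2 and Cdk6 are shown because signals of both genes were lowest in the same 2 groups. They are the 250 bases before the RefSeq transcription start in the build GRCm38.p6, written 5′ to 3′ on the strand of the gene, chr3:133544391-133544640 on the minus strand for Tet2 and chr5:3343643-3343892 on the plus strand for Cdk6. Capitals mark matches, on either strand, to GCGTG (the core bound by the aryl hydrocarbon receptor, a sensor of foreign compounds) and to CACGTG (the E-box bound by MYC with MAX).
Tet2: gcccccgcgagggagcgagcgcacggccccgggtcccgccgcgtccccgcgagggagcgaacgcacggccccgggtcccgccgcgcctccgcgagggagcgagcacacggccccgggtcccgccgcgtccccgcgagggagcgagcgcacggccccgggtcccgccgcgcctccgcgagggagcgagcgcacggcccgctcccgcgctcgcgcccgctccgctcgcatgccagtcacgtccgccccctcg
Cdk6: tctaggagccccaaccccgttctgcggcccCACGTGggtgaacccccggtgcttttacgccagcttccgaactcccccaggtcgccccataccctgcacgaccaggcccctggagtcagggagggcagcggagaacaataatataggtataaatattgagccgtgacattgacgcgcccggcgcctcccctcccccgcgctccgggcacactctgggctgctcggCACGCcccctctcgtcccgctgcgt
Neither motif, nor the antioxidant response element TGACNNNGC bound by NRF2, was in the Tet2 window, which was 83.6% G and C. The Cdk6 window, 66% G and C, held 1 CACGC, the reverse complement of the receptor core, 25 bases upstream of the start and 1 E-box 220 bases upstream, and these matches do not overlap. GCGTG occurred in 28.2% of 32851 mouse promoters of this length, CACGTG in 6.02% and TGACNNNGC in 10.2%. The table of promoters held 6 of the 9 genes with 9 starts, of which 3 held the receptor core, 1 the E-box and 1 the antioxidant element. These matches describe the letters only.

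Wwox gave 2 measurable probe sets, and they disagreed. Wwox encodes an oxidoreductase with WW domains that binds many signalling proteins. Probe set 1431960_at had signals of 7.06, 7.02 and 6.90 in NDA lungs, 6.90, 7.05 and 6.43 in benzofuran lungs, 7.17, 7.20 and 7.55 in NEDD lungs, 7.57, 7.16 and 7.57 in PCNB lungs, 7.85, 7.78 and 7.44 in corn oil controls and 7.14, 7.23 and 7.65 in feed controls. All 6 arrays of the tumour-positive chemicals lay below all 12 other arrays, an order that 0.12% of all tested probe sets had. The mean of the benzofuran lungs was 6.79 ± 0.32 and that of their corn oil controls 7.69 ± 0.22 (SD, n = 3 each), a difference of -0.90 ± 0.18 (SE here and below for differences). The mean of the NDA lungs was 6.99 ± 0.08 and that of the feed controls 7.34 ± 0.27, a difference of -0.35 ± 0.18, which was -0.19 without feed control 29. Without benzofuran 10 the difference from corn oil control was -0.72 ± 0.18. From lowest to highest mean the groups ran benzofuran, NDA, NEDD, feed control, PCNB and corn oil control, and neighbours in that order overlapped, apart from NDA and NEDD, whose arrays did not.

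Probe set 1416334_at of Wwox, the one designed on a RefSeq transcript of the gene, ran the other way in benzofuran lungs. It read 6.48, 6.59 and 6.50 in NDA lungs, 6.78, 6.40 and 7.15 in benzofuran lungs, 6.77, 6.67 and 6.78 in NEDD lungs, 6.25, 6.58 and 6.52 in PCNB lungs, 6.32, 6.41 and 6.38 in corn oil controls and 6.57, 6.58 and 6.43 in feed controls. The highest value was that of benzofuran 10, the array with the lowest value of 1431960_at, and benzofuran 8 lay within the range of the corn oil controls. The difference of benzofuran from corn oil control was 0.41 ± 0.14 with all arrays and 0.22 ± 0.12 without benzofuran 10, and that of NDA from feed control was -0.0029 ± 0.14. Across the 18 arrays the 2 probe sets had a Pearson r of -0.68, and of -0.48 over the 17 arrays without benzofuran 10. This is a description over arrays that share groups. In NEDD lungs all 3 values of 1416334_at lay above those of the feed controls, by 0.21 ± 0.14 (limma, adjusted p = 0.681), as did those of 7.05% of all tested probe sets. The other probe sets of Wwox, 1438517_at and 1431942_at, read between 4.08 and 4.79 and between 3.69 and 4.23 over all arrays, below the limit used for testing. The deposited values do not say which transcripts each probe set reads, and a direction for Wwox as a gene is therefore not given.

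**Figure D1:**
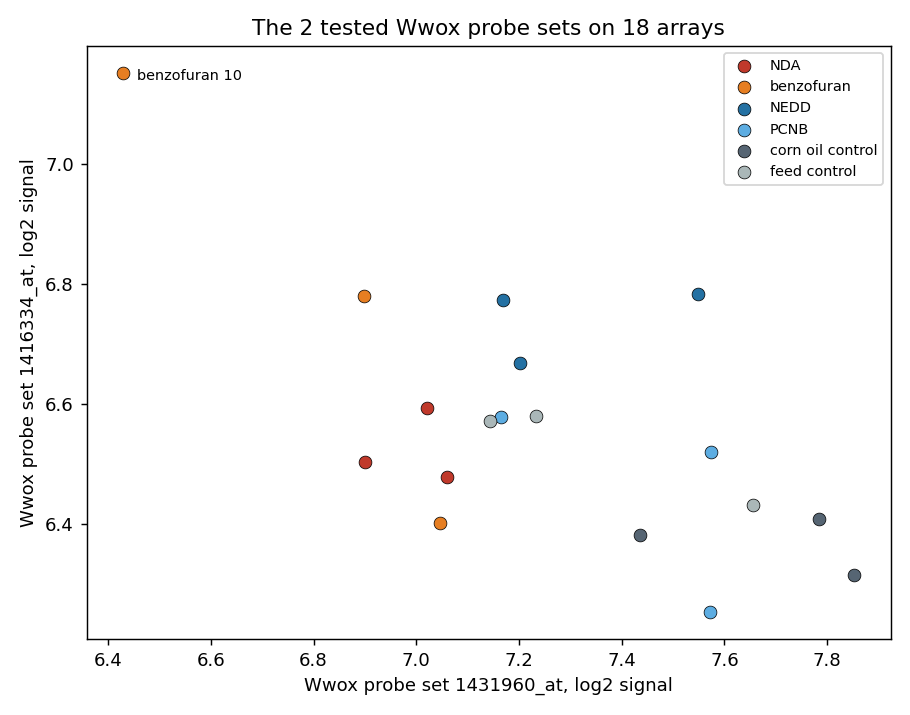
Log2 signal of Wwox probe set 1431960_at (horizontal axis) against that of Wwox probe set 1416334_at (vertical axis), 1 point per array and 1 colour per group. Benzofuran 10, with the lowest value of the first (6.43) and the highest of the second (7.15), sits at the upper left, and the other 2 benzofuran arrays and the 3 NDA arrays lie at or below 7.06 on the horizontal axis.

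Tet2 had lower mean signals in the lungs of both tumour-positive groups than in their controls on both of its probe sets. Probe set 1438781_at read 8.84, 8.81 and 8.74 in NDA lungs, 8.51, 8.61 and 7.93 in benzofuran lungs, 8.84, 8.88 and 9.24 in NEDD lungs, 9.21, 8.96 and 8.98 in PCNB lungs, 9.30, 9.11 and 8.85 in corn oil controls and 8.94, 8.98 and 9.11 in feed controls. All 6 arrays of the tumour-positive chemicals lay below all others, narrowly so for NDA 2 at 8.836 against NEDD 12 at 8.841. The benzofuran mean was 8.35 ± 0.37 against 9.09 ± 0.22 in corn oil controls (SD, n = 3 each), a difference of -0.74 ± 0.16, or -0.53 ± 0.14 without benzofuran 10. NDA lungs averaged 8.79 ± 0.05 and feed controls 9.01 ± 0.09, a difference of -0.22 ± 0.16. The means ran benzofuran, NDA, NEDD, feed control, PCNB and corn oil control from low to high. The benzofuran arrays did not overlap with those of NDA, nor NDA with NEDD, and the 4 higher groups overlapped.

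The second Tet2 probe set, 1455300_at, read 7.97, 7.86 and 7.90 in NDA lungs, 8.11, 7.79 and 7.62 in benzofuran lungs, 7.98, 8.03 and 8.45 in NEDD lungs, 8.03, 8.23 and 8.09 in PCNB lungs, 8.13, 8.10 and 8.06 in corn oil controls and 8.09, 8.32 and 8.26 in feed controls. Here all NDA arrays lay below the feed controls, as did those of 10.3% of all tested probe sets, with a difference of -0.31 ± 0.13. Benzofuran 6 lay within the range of the corn oil controls, and the benzofuran group differed from them by -0.26 ± 0.13, or by -0.15 ± 0.14 without benzofuran 10. The 2 probe sets of Tet2 had an r of 0.75 over 18 arrays and of 0.60 without benzofuran 10.

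Cdk6, the kinase partner of the D cyclins, again had its lowest main signals in benzofuran and NDA lungs. Probe set 1455287_at read 9.16, 8.86 and 8.97 in NDA lungs, 8.97, 9.0 and 8.42 in benzofuran lungs, 9.52, 9.26 and 9.52 in NEDD lungs, 9.44, 9.25 and 9.41 in PCNB lungs, 9.62, 9.44 and 9.48 in corn oil controls and 9.19, 9.27 and 9.37 in feed controls. All 6 arrays of the tumour-positive chemicals again lay below the 12 others. Benzofuran lungs averaged 8.80 ± 0.32 and corn oil controls 9.51 ± 0.09 (SD, n = 3 each), a difference of -0.71 ± 0.14, or -0.53 ± 0.11 without benzofuran 10. NDA lungs averaged 8.997 ± 0.15 and feed controls 9.28 ± 0.09, a difference of -0.28 ± 0.14. From low to high the means ran benzofuran, NDA, feed control, PCNB, NEDD and corn oil control, and of neighbours in that order only NDA and feed control did not overlap. The corn oil controls in turn lay above the feed controls on all arrays, as did those of 2.57% of all tested probe sets. That difference was 0.24 ± 0.14 (limma, adjusted p = 0.9999). The feed control mean of 9.28 thus lay between the benzofuran mean of 8.80 and the corn oil mean of 9.51.

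The second Cdk6 probe set, 1435338_at, read 8.36, 7.87 and 8.10 in NDA lungs and 8.40, 8.44 and 8.75 in feed controls, a difference of -0.42 ± 0.15. In benzofuran lungs it read 8.35, 8.24 and 7.96 and in corn oil controls 8.77, 8.61 and 8.42, a difference of -0.42 ± 0.15. On this probe set the corn oil controls overlapped with the feed controls, with a difference of 0.07 ± 0.15. The arrays of each treated group lay below those of its own control. This order held for 10.3% of all tested probe sets for NDA and for 5.84% for benzofuran. NDA 2 and benzofuran 6, however, reached into the range of the NEDD lungs (8.32 to 8.56) and PCNB lungs (8.29 to 8.60). Its r with 1455287_at was 0.82 over 18 arrays and 0.80 without benzofuran 10. Both probe sets are annotated to the same sequence record, which is not a RefSeq transcript. They are therefore not independent readings of Cdk6. Probe set 1460291_at, designed on a RefSeq transcript of Cdk6, lay between 4.33 and 5.34 and above the 40th percentile on 2 arrays.

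**Figure D2:**
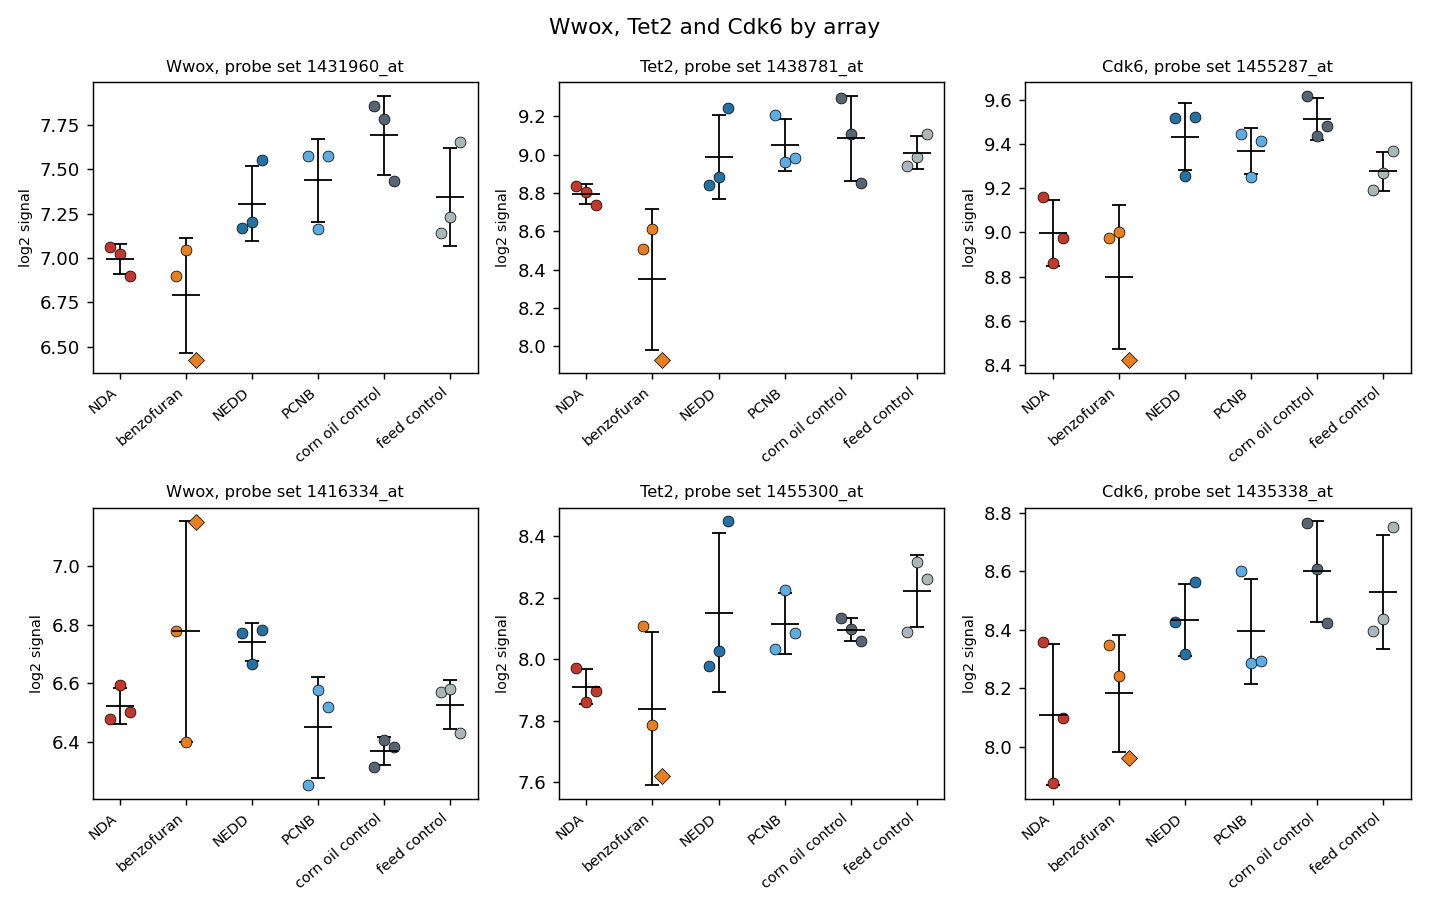
Log2 signal (vertical axes, which do not start at 0) of the 2 tested probe sets each of Wwox, Tet2 and Cdk6 in the 6 groups (horizontal axes). Points are arrays, the diamond is benzofuran 10, long bars are group means and short bars mark 1 SD (n = 3). In the upper row the NDA and benzofuran points lie below all others. In the lower row none of the second probe sets of Wwox, Tet2 and Cdk6 shares that order.

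In NDA and benzofuran lungs together against the mean of the 4 other groups, these 3 probe sets differed by -0.55 ± 0.11 (Wwox 1431960_at), -0.46 ± 0.10 (Tet2 1438781_at) and -0.50 ± 0.09 (Cdk6 1455287_at), and by -0.46, -0.36 and -0.40 without benzofuran 10. The values for the second probe sets were 0.13 ± 0.09 for Wwox, -0.27 ± 0.08 for Tet2 and -0.34 ± 0.09 for Cdk6, and 0.04 ± 0.07, -0.22 ± 0.08 and -0.29 ± 0.09 without benzofuran 10. With limma and Benjamini-Hochberg adjustment over all tested probe sets, 4 of the 20 member probe sets were called lower and 0 higher at a threshold of 0.05, among 4.88% of all tested probe sets called and 1.5% called lower. Without benzofuran 10, 3 of 20 were called, and Cdk6 1435338_at was no longer among them. Since differences of this kind chose the genes, nothing is read from these counts or from those of the next paragraph. The median difference over the 20 was -0.05, beside 0.00 over all tested probe sets. 

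Benzofuran against corn oil control called 3 of 20 lower, Wwox 1431960_at, Tet2 1438781_at and Cdk6 1455287_at, among 0.68% of all tested probe sets called and 0.134% called lower, and 0 of the 20 without benzofuran 10, when 0.169% of all were called. NDA against feed control called 0 of 20, among 0.926% of all called. At an unadjusted limma p under 0.05 were 3 of the 20 in that comparison, beside 9.03% of all tested probe sets. Each tumour-positive treatment against its own control, minus the same for the tumour-negative treatments, called 2 of 20 lower, Wwox 1431960_at at -0.65 ± 0.16 and Cdk6 1455287_at at -0.62 ± 0.12, among 1.64% of all called and 0.183% called lower. Only the Cdk6 probe set was called without benzofuran 10, at -0.53 ± 0.09. These comparisons share control arrays, so their values are not independent of each other.

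Signals of several other cell types differed between these groups. The 6 alveolar type 1 markers averaged, relative to their mean over all arrays, -0.204 to -0.08 in NDA lungs and -0.098 to -0.065 in benzofuran lungs, below all 12 other arrays, whose lowest was a corn oil control at -0.018. The 6 club cell markers averaged 0.032 to 0.13 in NDA lungs and 0.07 to 0.188 in benzofuran lungs, above all 12 others, whose highest was a corn oil control at 0.006. Of these 6 markers, however, only 1 had a higher mean in NDA lungs than in feed controls, by 1.40, and the median difference was -0.11. Benzofuran lungs had higher means than corn oil controls for 4 of the 6, with a median difference of 0.09. In both positive groups against all others, 0 of the 6 alveolar type 1 markers were called higher and 1 lower, and 1 of the 6 club cell markers was called higher and 0 lower. The 7 ciliated cell markers averaged 0.207 to 0.584 in benzofuran lungs against -0.309 to 0.034 in corn oil controls, and 0.065 to 0.175 in NDA lungs against -0.267 to 0.143 in feed controls. The 7 endothelial markers averaged -0.42 to 0.035 in benzofuran lungs against -0.117 to 0.127 in corn oil controls, and -0.203 to -0.088 in NDA lungs against 0.026 to 0.151 in feed controls. The 6 fibroblast markers averaged -0.533 to 0.002 in benzofuran lungs against 0.218 to 0.303 in corn oil controls, and -0.133 to 0.13 in NDA lungs against -0.134 to 0.19 in feed controls. NDA lungs thus overlapped with feed controls for ciliated cells and fibroblasts, and benzofuran lungs with corn oil controls for endothelial cells. In both positive groups against all others, 4 of the 7 ciliated markers were called higher and 0 lower. For the 7 endothelial markers these numbers were 0 and 1, and for the 6 fibroblast markers 0 and 2. Of all tested probe sets, 3.37% were called higher and 1.5% lower there. Called without benzofuran 10 were 4 ciliated, 0 endothelial and 0 fibroblast markers. All members of these 5 lists were above the 40th percentile on at least 3 arrays. Without benzofuran 10 the averages in benzofuran lungs were -0.098 to -0.065 for alveolar type 1, 0.07 to 0.114 for club, 0.207 to 0.363 for ciliated and -0.082 to 0.002 for fibroblast markers, none of which overlapped with corn oil controls, and 0.013 to 0.035 for endothelial markers, inside their range. The 6 neutrophil markers averaged -0.569 to -0.167 in benzofuran lungs against -0.064 to 0.38 in corn oil controls. They averaged -0.156 to 0.424 in NDA lungs against 0.129 to 0.294 in feed controls, and 0 were called in both positive groups against all others. The part of these cell types in the 3 genes' signals was not tested. With the actin difference as a covariate, Wwox 1431960_at, Tet2 1438781_at and Cdk6 1455287_at differed by -0.58 ± 0.11, -0.50 ± 0.10 and -0.54 ± 0.08 in both positive groups against all others. The genes were chosen on such differences, and the actin difference itself differed between NDA and feed control arrays. Nothing is therefore read from these values.

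Among 13433 genes compared over the 18 arrays by the main probe set of each, those most like Wwox 1431960_at were Htt (r = 0.90, and 0.85 without benzofuran 10), Epb41l2 (0.90 and 0.85) and Sparcl1 (0.90 and 0.85). Those most like Tet2 1438781_at were C130075A20Rik (0.94 and 0.88), Htt (0.94 and 0.90) and Fam219a (0.93 and 0.85), and those most like Cdk6 1455287_at were Col6a3 (0.94 and 0.89), Mindy2 (0.92 and 0.85) and Flt1 (0.91 and 0.82). Col6a3 encodes a chain of type VI collagen made by fibroblasts, and Flt1 a VEGF receptor of endothelial cells. These correlations describe arrays that share groups and 1 outlying array.

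Fhit, the second fragile site gene, encodes a diadenosine triphosphate hydrolase and had its highest signals in benzofuran lungs. Its only probe set, 1425893_a_at, read 6.87, 6.67 and 6.84 in NDA lungs, 7.09, 7.01 and 7.93 in benzofuran lungs, 6.59, 6.56 and 6.55 in NEDD lungs, 6.73, 6.83 and 6.39 in PCNB lungs, 6.57, 6.71 and 6.76 in corn oil controls and 7.04, 6.85 and 6.60 in feed controls. All benzofuran arrays were above all corn oil controls, by 0.66 ± 0.19 (9.61% of all tested probe sets had this order), but benzofuran 6 and 8 lay on either side of the highest feed control. Without benzofuran 10 the difference was 0.37 ± 0.14. NDA lungs differed from feed controls by -0.03 ± 0.19. All NEDD arrays lay just below all feed control arrays, as did those of 10.5% of all tested probe sets, with a difference of -0.27 ± 0.19 (limma, adjusted p = 0.696).

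Rassf1 was the member with the largest difference in a tumour-negative treatment. Probe set 1441737_s_at read 9.41, 9.53 and 9.49 in NDA lungs, 9.43, 9.52 and 9.30 in benzofuran lungs, 10.03, 9.74 and 9.89 in NEDD lungs, 9.71, 9.61 and 9.61 in PCNB lungs, 9.40, 9.44 and 9.60 in corn oil controls and 9.57, 9.30 and 9.43 in feed controls. NEDD lungs averaged 9.89 ± 0.14 and feed controls 9.43 ± 0.13 (SD, n = 3 each), a difference of 0.45 ± 0.10. All NEDD arrays lay above all feed controls, as did those of 7.05% of all tested probe sets. Probe set 1448855_at, with an r of 0.90 to the first, read 9.88, 9.66 and 9.77 in NEDD lungs and 9.52, 9.22 and 9.40 in feed controls, a difference of 0.39 ± 0.10. Neither passed the adjustment over all tested probe sets (limma, adjusted p = 0.518 for both), and no probe set of the array was called in NEDD lungs (0% called). They were the 2 of 20 member probe sets at an unadjusted p under 0.05 in that comparison, beside 8% of all tested probe sets. In PCNB lungs 1441737_s_at was also above all feed controls, by 0.21 ± 0.10 (limma, adjusted p = 0.9999), an order found in 3.75% of all tested probe sets.

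Another Rassf1 probe set, 1457788_at, did not follow the others, with an r of 0.11 and 0.05 to them. It differed by -0.49 ± 0.30 between NDA lungs and feed controls. All NDA arrays (6.14 to 6.45) lay just below all feed controls (6.46 to 7.06), as did those of 10.3% of all tested probe sets. Between benzofuran lungs and corn oil controls, whose own arrays ran from 6.06 to 7.32, it differed by -0.50 ± 0.30. Without corn oil control 24 or 25 the difference of benzofuran from corn oil control was -0.24 or -0.87. Probe set 1456994_at of Rassf1 lay between 2.58 and 2.85 on all arrays.

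Cdkn2a, which encodes p16 and p19ARF, was not detected by the limit used here. Its probe set 1450140_a_at read 3.94, 4.04 and 3.90 in NDA lungs, 4.00, 3.90 and 4.32 in benzofuran lungs, 4.33, 3.90 and 4.02 in NEDD lungs, 3.97, 4.00 and 3.86 in PCNB lungs, 4.29, 4.09 and 3.95 in corn oil controls and 4.39, 4.02 and 3.85 in feed controls. All groups overlapped, and the probe set was above the 40th percentile on 0 of 18 arrays, so that a difference in Cdkn2a could not be seen at these signals.

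Myc was highest in NDA lungs. Its probe set 1424942_a_at read 7.10, 6.86 and 6.93 in NDA lungs, 6.53, 6.62 and 6.93 in benzofuran lungs, 6.77, 6.57 and 6.09 in NEDD lungs, 6.63, 6.58 and 6.23 in PCNB lungs, 6.62, 6.34 and 6.31 in corn oil controls and 6.60, 6.64 and 6.22 in feed controls. All NDA arrays lay above all feed controls, by 0.48 ± 0.17, as did 9.49% of all tested probe sets, and the 3 NDA arrays were also above every NEDD, PCNB and corn oil array. Benzofuran lungs overlapped with corn oil controls and differed by 0.27 ± 0.17, or by 0.15 ± 0.18 without benzofuran 10. The differences of NEDD and PCNB lungs from feed controls were -0.01 and -0.0043 (SE 0.17 each). The NDA lungs also had the highest average of 6 B and plasma cell markers, at 1.04 to 1.82 relative to the mean of all arrays against -0.829 to 0.071 in feed controls, whose part in the Myc signal was not tested.

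Ccnd1, on its main probe set, had its highest mean in the corn oil controls. Its main probe set 1417420_at read 10.70, 10.52 and 10.60 in NDA lungs, 10.54, 10.49 and 10.55 in benzofuran lungs, 10.57, 10.76 and 10.28 in NEDD lungs, 10.52, 10.48 and 10.55 in PCNB lungs, 10.72, 10.83 and 10.76 in corn oil controls and 10.59, 10.48 and 10.53 in feed controls. The corn oil controls lay above all feed controls, as did those of 2.57% of all tested probe sets, by 0.24 ± 0.11. They also lay above all benzofuran lungs, an order found in 5.84% of all tested probe sets, and benzofuran differed from them by -0.24 ± 0.11. The benzofuran mean was 10.53 ± 0.03 and the feed control mean 10.53 ± 0.05. Probe set 1448698_at gave 0.30 ± 0.11 for corn oil against feed control and -0.29 ± 0.11 for benzofuran against corn oil control, and 1417419_at gave 0.17 ± 0.24 and -0.15 ± 0.24 (0.05 ± 0.24 for the second without benzofuran 10). The largest difference of 1417419_at was that of NDA lungs from feed controls, 0.36 ± 0.24, beside 0.07 for 1417420_at and 0.04 for 1448698_at. No Ccnd1 probe set was called between the controls (limma, adjusted p = 0.9999 for all 3), where 0% of all tested probe sets were called and 2 of 20 members had an unadjusted p under 0.05. The controls differed in route, vehicle and days of dosing together. The 9 proliferating cell markers averaged 0.213 to 0.552 in corn oil controls against -0.496 to -0.08 in feed controls, and -0.19 to 0.261 in benzofuran lungs (-0.19 to -0.136 without benzofuran 10). These markers averaged -0.152 to 0.542 in NDA lungs, -0.011 to 0.027 in NEDD lungs and -0.466 to -0.028 in PCNB lungs. Their part in the Ccnd1 signal was not tested.

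Egfr was covered by 7 probe sets, 6 of them tested, and none was called in any comparison. Its main probe set 1435888_at read 7.74, 7.77 and 7.76 in NDA lungs, 7.69, 7.97 and 7.39 in benzofuran lungs, 7.84, 7.86 and 8.22 in NEDD lungs, 7.56, 8.12 and 7.65 in PCNB lungs, 8.02, 7.86 and 7.45 in corn oil controls and 7.75, 8.26 and 8.37 in feed controls. All groups overlapped with their control. The differences from feed control were -0.37 for NDA, -0.15 for NEDD, -0.35 for PCNB and -0.35 for corn oil (SE 0.20 each), and benzofuran differed from corn oil control by -0.09 ± 0.20. Probe set 1424932_at, with an r of 0.79 to it, was likewise below feed control in those 4 groups, by -0.33 to -0.14 in the difference of means. The other 4 tested probe sets of Egfr had 14 of 16 differences from feed control above 0, with a range of -0.06 to 0.28, all against the same feed control arrays, and had r with 1435888_at of -0.46 to 0.38. The probe sets of Egfr, too, gave no single direction.

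**Figure D3:**
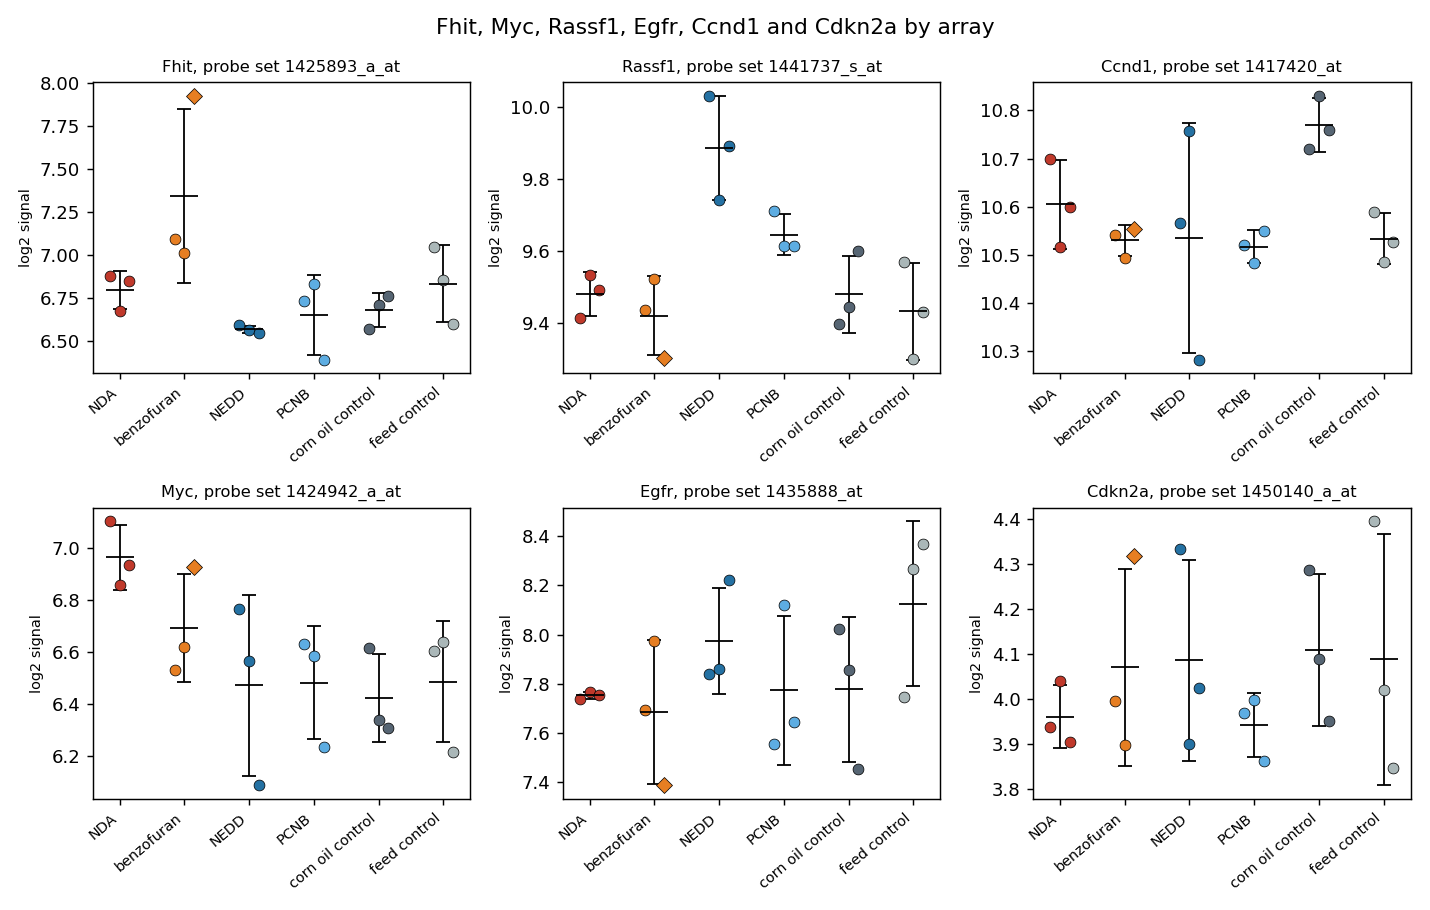
Log2 signal (vertical axes, which do not start at 0) of the main probe sets of Fhit, Rassf1, Ccnd1, Myc, Egfr and Cdkn2a in the 6 groups (horizontal axes). Points are arrays, the diamond is benzofuran 10, long bars are group means and short bars mark 1 SD (n = 3). Fhit is highest in benzofuran lungs, Rassf1 in NEDD lungs, Myc in NDA lungs and Ccnd1 in corn oil controls, while the Cdkn2a values all lie between 3.85 and 4.39.

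The tumour-negative chemicals and the vehicle called 0 of the 20 member probe sets. The numbers at an unadjusted p under 0.05 were 2 for NEDD against feed control, 0 for PCNB against feed control and 2 for corn oil against feed control. Of all tested probe sets, limma called 0% for NEDD, 0.00704% for PCNB and 0% for corn oil control, and 8%, 2.69% and 1.88% were at an unadjusted p under 0.05. The median member difference was -0.01 for NEDD, 0.01 for PCNB and 0.04 for corn oil control, beside -0.02, -0.02 and -0.01 over all tested probe sets. Wwox 1431960_at, Tet2 1438781_at and Cdk6 1455287_at lay between -0.04 and 0.16 in NEDD and PCNB lungs on the difference scale, with SEs of 0.14 to 0.18. The second tested probe sets of these genes lay between -0.13 and 0.21. The genes were chosen on differences from groups that include NEDD, PCNB and feed control, so these values are a description only.

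**Figure D4:**
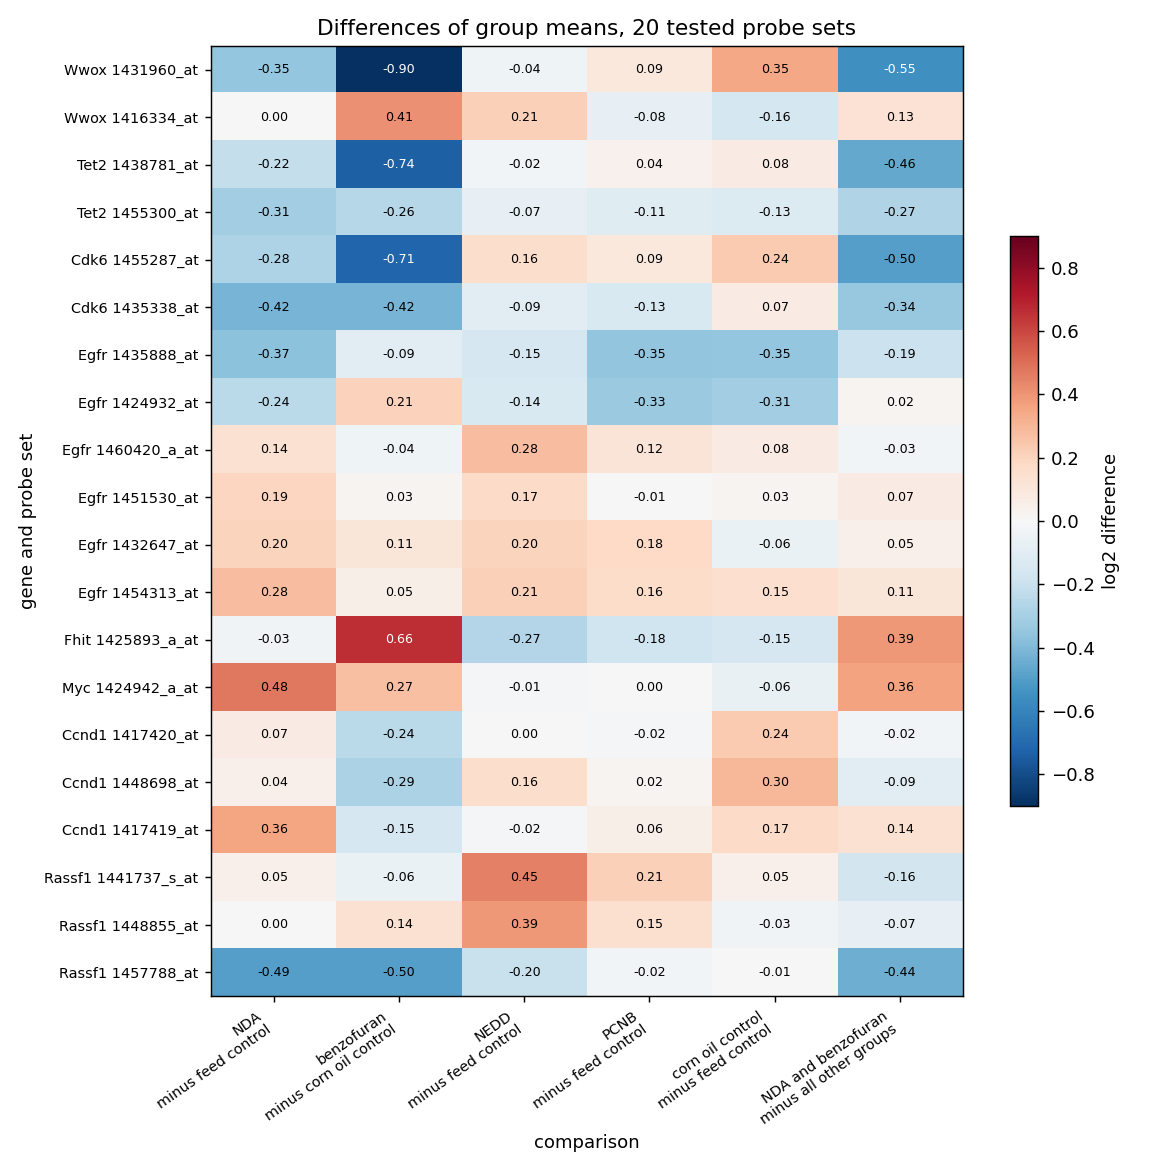
Difference of group means on the log2 scale (colour and printed value) for the 20 tested member probe sets (rows) in 6 comparisons (columns). The lowest value is that of Wwox 1431960_at for benzofuran against corn oil control (-0.90) and the highest that of Fhit in the same column (0.66), and the NEDD and PCNB columns are pale for Wwox, Tet2 and Cdk6.

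**Figure D5:**
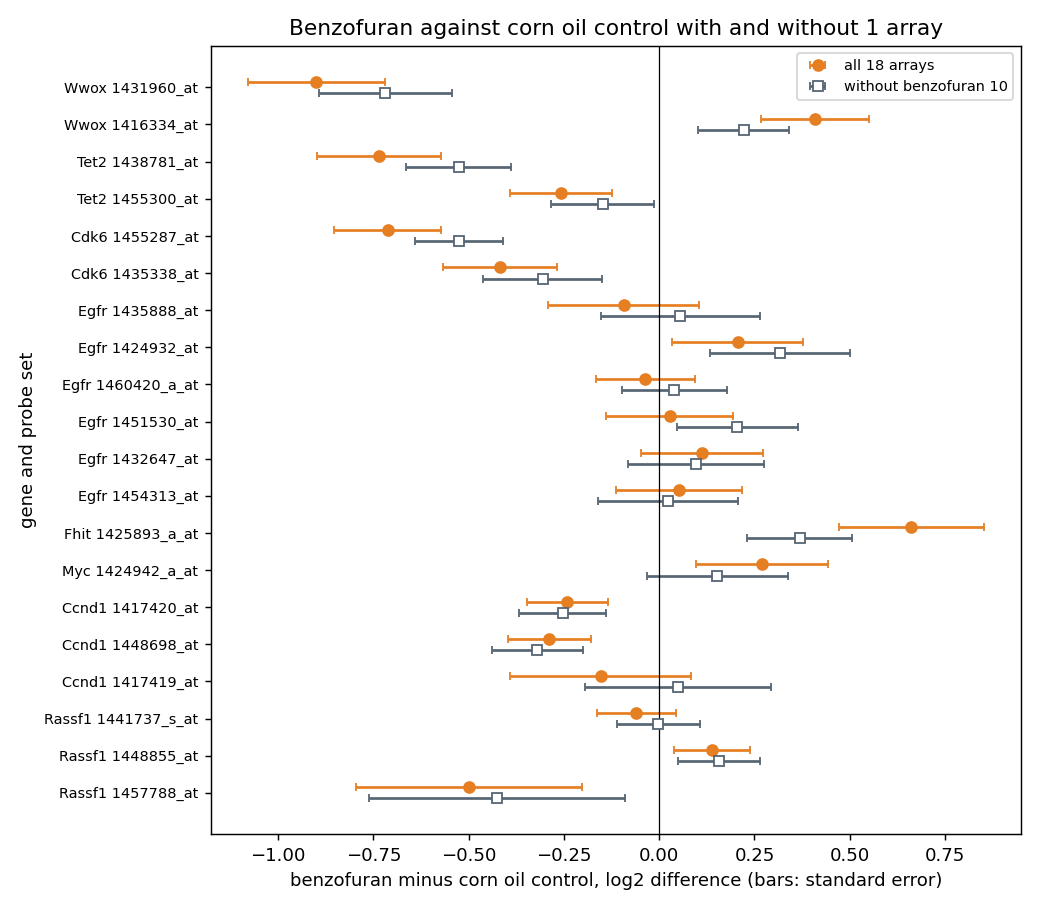
Benzofuran minus corn oil control on the log2 scale (horizontal axis) for the 20 tested member probe sets (rows), from all 18 arrays (filled circles) and without benzofuran 10 (open squares), with bars of 1 standard error. Wwox 1431960_at is at -0.90 with that array and at -0.72 without it, and Fhit at 0.66 and 0.37.

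The wider pathways of these genes were read from lists of other genes, each gene by its probe set of highest mean. In NDA and benzofuran lungs together against the other groups, 3.37% of all tested probe sets were called higher and 1.5% lower. The calls below are of that comparison unless another is named. These lists, too, were chosen with earlier results of these data known. The calls and p-values of list genes are therefore a description and not independent support. Of the 18 tested G1 cyclins, CDKs and inhibitors, 1 rose and 1 fell. Cdkn1a, the p53-induced inhibitor p21, rose by 0.51 ± 0.13 (limma, adjusted p = 0.0271), and Ccnd2, the cyclin D2 partner of CDK6, fell by 0.35 ± 0.08 (limma, adjusted p = 0.0202). The median of the list was -0.04, beside 0.00 over all tested probe sets, and both calls stood without benzofuran 10 (limma, adjusted p = 0.0244 and 0.0204). Of 14 tested genes of DNA methylation and demethylation, 2 rose and 0 fell. Idh1, the cytosolic enzyme that makes the 2-oxoglutarate used by TET proteins, rose by 0.51 ± 0.08 (limma, adjusted p = 0.00102) and Idh3a, a subunit of the mitochondrial enzyme, by 0.24 ± 0.06 (limma, adjusted p = 0.0235). Idh1 also rose in NDA lungs alone, by 0.58 ± 0.13 (limma, adjusted p = 0.0367).

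Of 18 tested genes of the RASSF family and Hippo kinases, 1 rose, Rassf6, by 0.52 ± 0.11 (limma, adjusted p = 0.0127), and 0 fell. The median of this list was -0.13. Of 17 other lung tumour suppressors, 1 rose and 2 fell. Cdh13, the cell surface T-cadherin, fell by 0.53 ± 0.08 (limma, adjusted p = 0.00128), Cadm1, an adhesion molecule, fell by 0.28 ± 0.08 (limma, adjusted p = 0.0498), and Rarb, a retinoic acid receptor, rose by 0.61 ± 0.14 (limma, adjusted p = 0.023). Of 11 other lung oncogenes 1 fell, the growth factor receptor Fgfr1, by 0.30 ± 0.08 (limma, adjusted p = 0.0393), and of 5 other fragile site genes 1 rose, Cntnap2, by 0.36 ± 0.09 (limma, adjusted p = 0.0396). Without benzofuran 10, Cdh13 and Rassf6 were still called (limma, adjusted p = 0.000227 and 0.0236), and Cadm1, Rarb, Fgfr1 and Cntnap2 were not (limma, adjusted p = 0.0644, 0.0624, 0.0707 and 0.0995).

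None of 17 genes of the MYC network and none of 18 genes of EGFR ligands, receptors and RAS-MAPK signalling was called by limma in any of the 7 comparisons, with at most 3 and at most 2 of them at an unadjusted p under 0.05 in one comparison. Mycl, a relative of Myc, differed by -0.72 ± 0.20 between NDA lungs and feed controls (limma, adjusted p = 0.163), and without benzofuran 10, which is in neither group but enters the spread, it was called (limma, adjusted p = 0.0189). In NDA and benzofuran lungs against the other groups, the smallest p of each list belonged to Mnt, a repressor that competes with MYC for MAX, at -0.22 ± 0.07 (limma, adjusted p = 0.0971), and to Grb2, the adaptor between EGFR and RAS, at 0.17 ± 0.06 (limma, adjusted p = 0.121). Medians of these lists were 0.01 and -0.02.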

How the data were processed

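The deposited log2 table held 45101 probe sets of an Affymetrix mouse array for 18 mice, without missing values. The summary method, normalization and logarithm base that the authors used for these values are, however, not given in the sources used here. A base of 2 was judged from the range of 2.48 to 14.78, and array medians lay between 5.678 and 5.803. Per the labels' protocols, RNA was extracted with Trizol and a column, and biotin-labelled.

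The values were used as deposited. Platform annotation gave 1 symbol to 34945 probe sets, several to 932 and none to 9160, and 64 were controls. Probe sets above the 40th percentile of their array on at least 3 arrays (28402, or 63.1%) were fitted in limma 3.58.1 (R 4.3.3) with 1 mean per group, 12 residual degrees of freedom and moderated variances, with Benjamini-Hochberg adjustment within each of 7 comparisons (threshold 0.05). The scripts were tested on simulated data. Groups follow the labels, with 3 mice each, and the number of arrays limits the precision. Animals carry no batch label.

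The members and the gene lists were chosen with earlier results of these data known. All member probe sets were reported. The main probe set of a gene was the one of highest mean. List genes were named where called, at most 6 per list and comparison, or by the smallest p. Likeness was Pearson's r over arrays for the 3 most similar genes of each of Wwox, Tet2 and Cdk6. Promoters came from RefSeq. Alternatives tried were no filter, 1 probe set per gene, median centring, quantile normalization, array weights, the actin difference as a covariate, a fit on the compared groups alone and leaving out each array. The values of pathway lists and cell type markers without benzofuran 10 were added after the data were seen.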

Additional observations from a re-analysis of the deposited data

How the results depend on the processing

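The count of called member probe sets, which was 0 for NDA, NEDD, PCNB and corn oil against feed control, 3 for benzofuran against corn oil control, 2 for tumour-positive against tumour-negative treatments and 4 for NDA and benzofuran against all other groups, kept within 1.5 times these values under median centring and quantile normalization. With 1 probe set per gene, where 8 member probe sets were tested in place of 20, the counts were 3 for benzofuran, 3 for tumour-positive against tumour-negative treatments and 5 for both positive chemicals against all others. With array weights, which gave benzofuran 10 a weight of 0.114, the counts were 1 for NDA, 2 for NEDD, 8 for benzofuran, 7 for tumour-positive against tumour-negative treatments and 8 for both positive chemicals against all others, and the calls over all probe sets also multiplied, to 2628 for NEDD and 4416 for benzofuran. The actin covariate gave 4 for benzofuran, 3 for tumour-positive against tumour-negative treatments and 7 for both positive chemicals against all others, and no filter gave 1 for tumour-positive against tumour-negative treatments. The fit on benzofuran and corn oil arrays alone, which has fewer arrays, gave 0 for benzofuran. Leaving out each array in turn gave 0 to 5 for benzofuran, 1 to 5 for tumour-positive against tumour-negative treatments, 3 to 6 for both positive chemicals against all others and 0 for the other 4 comparisons. The benzofuran count was 0 without benzofuran 10, corn oil control 22, corn oil control 24 or NDA 5, 1 without NDA 2 or benzofuran 6, and 5 without benzofuran 8. The causes of the other shifts were not tested. Over these fits the differences of both positive chemicals from all other groups ran from -0.62 to -0.46 for Wwox 1431960_at, -0.53 to -0.36 for Tet2 1438781_at and -0.55 to -0.40 for Cdk6 1455287_at. The genes were chosen on such differences, so these ranges and counts are no sign of stability. No called member difference changed sign under any alternative run. Of the other values of single member probe sets, 58 fell out of the calls and 35 entered them. A further 12 moved by at least the pooled SD of the probe set within groups, and 3271 stayed. No paired analysis was possible because no animal number occurs in more than 1 group. Detection calls were not used here, so low signals such as those of Cdkn2a are limited by background.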
